A study of Mus musculus with 8 samples.

Results

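The guidance genes described here are the netrins, semaphorins, ephrins and Slits, together with their plexin, neuropilin, Dcc/Unc5, Robo and Eph receptors and the Flrt proteins. They were chosen by gene symbol alone, and the pattern matched 75 of the 24346 genes in the expression table. Of these, 37 encode ligands, 35 encode receptors and 3 are Flrt genes. A mean of at least 0.1 RPKM (read number divided by transcript length in kilobases and by library size) over all libraries was reached by 60 of the 75, and only those were tested. The study asked how loss of *Dnmt3l*, which encodes a cofactor of the de novo DNA methyltransferases without catalytic activity of its own, is reflected in the transcriptome of bone marrow mesenchymal stem/stromal cells (MSCs) before and during osteogenic induction. MSCs adhere to plastic and give rise to osteoblasts, adipocytes and chondrocytes.

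RNA was measured in 8 libraries, 2 for each of 4 groups: undifferentiated wild type (WT) MSCs, differentiating WT MSCs, undifferentiated *Dnmt3l* KO MSCs and differentiating *Dnmt3l* KO MSCs. The KO mice carried 2 copies of the tmEnls allele of *Dnmt3l*, the WT mice were Dnmt3l +/+ littermates, and all were on the C57BL/6 background. MSCs were taken from femurs and tibias of female mice of 8 to 16 weeks and were depleted of CD11b+ and CD45+ cells on magnetic beads. Cells of 3 mice were mixed for each genotype. Whether both libraries of a group stem from 1 mix or from 2 is not stated, so genotype and cell mix cannot be told apart, and p-values measure only the spread between libraries, which may be technical. All cells were at passage 4. The differentiating cells had reached confluence and had then been for 3 days in αMEM with dexamethasone, β-glycerophosphate and ascorbic acid 2-phosphate. This medium held less serum than the growth medium, in which the undifferentiated cells stayed without these agents. Induction here means all of these together, and the parts of agents, serum and confluence cannot be told apart.

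*Dnmt3l* itself stood at 1.56 and 1.09 RPKM in undifferentiated WT MSCs, at 0.845 and 0.830 RPKM in differentiating WT MSCs, and was listed at 0 in all 4 KO libraries. The study reports that these WT reads covered only the later exons of the gene, and that canonical DNMT3L protein was not detected in cultured MSCs. Depth, read from the smallest steps between low values, came to 48.5 to 67.3 M scaled reads per library (median 50.25 M), and at this depth 3 reads on *Ntn4* would give 0.0130 to 0.0180 RPKM, a limit that covers counting error only. All 10 MSC markers, among them *Pdgfra*, *Thy1* and *Cd44*, were above 1 RPKM in every library. The leukocyte marker *Cd3e* was at 0 throughout and *Ptprc*, which encodes CD45, reached at most 0.127 RPKM. The 11 macrophage and leukocyte markers in the table, of which *Lyz2* was the most abundant, summed to 20.4 to 37.4 RPKM in WT and 10.0 to 15.1 RPKM in KO libraries. Endothelial markers summed to 1.58 to 5.02 RPKM, with *Pecam1* and *Cdh5* no higher than 0.0843 RPKM. *Tek*, the most abundant of them, stood at 0.358 to 0.686 RPKM in undifferentiated and 1.93 to 4.13 RPKM in differentiating libraries. *Esam* reached 1.18 RPKM and *Flt1* 0.428 RPKM. Neural and Schwann markers summed to 13.6 to 57.4 RPKM, with *Sox10* no higher than 0.0711 RPKM. *Tubb3* made up most of the neural and Schwann sum in undifferentiated libraries, whereas *S100b* exceeded *Tubb3* in every differentiating library. In a culture measured in bulk, fewer cells of a type and less RNA per cell cannot be told apart.

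Guidance proteins were first known for steering growing axons, and the same ligands and receptors act in vessels, bone and marrow. Netrins are secreted relatives of laminins that signal through DCC, neogenin and UNC5 receptors, and Slits are large secreted proteins that bind ROBO receptors. Semaphorins are secreted or membrane-bound, and most signal through plexins, with neuropilins as partner receptors for the secreted class 3 members. Ephrins are tethered to the cell membrane and signal to Eph receptor tyrosine kinases on neighbouring cells, and also back into the cell that carries them. Osteoblasts and osteoclasts are known to exchange semaphorin and ephrin signals.

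Of the 75 genes, 64 had at least 1 promoter in the RefSeq table (build GRCm38.p6), giving 80 promoters. The 250 bases before these starts held a median of 15 CG dinucleotides, the site of DNA methylation, which reads the same on both strands. The median over all 32851 promoters of the table was 6. At least 10 CG were present in 68.8% of the guidance gene promoters and in 37.8% of all promoters. The promoters of *Ntn4*, *Epha3* and *Sema4f* are printed because these genes differed between the genotypes. *Ntn1* also differed and its promoter is not shown. Each is given on its own strand from 5′ to 3′, in lower case with every CG in capitals. Methylation was not measured in these libraries.

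*Ntn4*, plus strand, chr10:93640799-93641048: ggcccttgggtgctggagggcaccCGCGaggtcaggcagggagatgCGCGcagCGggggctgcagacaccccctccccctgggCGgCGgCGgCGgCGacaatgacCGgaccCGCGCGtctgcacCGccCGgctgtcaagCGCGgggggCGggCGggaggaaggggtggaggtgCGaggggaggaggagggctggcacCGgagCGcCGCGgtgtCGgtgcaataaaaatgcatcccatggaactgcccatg

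*Epha3*, minus strand, chr16:63864176-63864425: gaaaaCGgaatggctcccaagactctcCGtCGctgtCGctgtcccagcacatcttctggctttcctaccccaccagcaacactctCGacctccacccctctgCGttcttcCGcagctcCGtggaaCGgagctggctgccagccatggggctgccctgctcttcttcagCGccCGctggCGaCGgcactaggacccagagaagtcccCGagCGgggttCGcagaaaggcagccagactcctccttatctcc

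*Sema4f*, minus strand, chr6:82939770-82940019: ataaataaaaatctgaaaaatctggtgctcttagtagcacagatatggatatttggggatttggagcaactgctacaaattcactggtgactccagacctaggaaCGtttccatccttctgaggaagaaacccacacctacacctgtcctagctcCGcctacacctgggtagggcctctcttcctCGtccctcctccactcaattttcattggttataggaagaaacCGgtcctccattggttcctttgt

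The *Ntn4* window held 26 CG, more than or as many as 91.4% of all promoters, the *Epha3* window 16 CG (76.5%) and the *Sema4f* window 4 CG (44.4%). In the GENCODE M21 annotation of mm10 the genes span chr10:93640681-93747207 (*Ntn4*), chr16:63543534-63864175 (*Epha3*) and chr6:82911885-82939769 (*Sema4f*), so the gene model of *Ntn4* begins upstream of the window shown.

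Few guidance genes differed between the genotypes by more than 2-fold, and the netrins were the clearest of them. A gene is called here when its log2 difference exceeded 1 in size with a Benjamini-Hochberg adjusted p-value under 0.05 in limma, on the log2(RPKM + 0.1) scale, which understates changes of low genes. In undifferentiated MSCs, *Ntn4* was higher and *Epha3* lower in KO, which makes 2 of 60. Over all 15342 genes tested, 0.613% were called higher and 1.09% lower. In differentiating MSCs, *Ntn4* and *Ntn1* were higher and *Sema4f* lower in KO, 3 of 60, where 1.36% of all genes were called higher and 1.95% lower. By adjusted p-value alone, 25 guidance genes (10 higher, 15 lower) differed in undifferentiated MSCs and 37 (19 higher, 18 lower) in differentiating MSCs. Those are 41.7% and 61.7% of the genes tested, beside 32.2% and 40.7% of all genes. Their median differences were −0.06 and 0.12, and those of all genes tested were close to 0. Without replicate 1 of undifferentiated WT MSCs the count in undifferentiated cells was 4, and without replicate 2 it was 1.

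**Figure D1:**
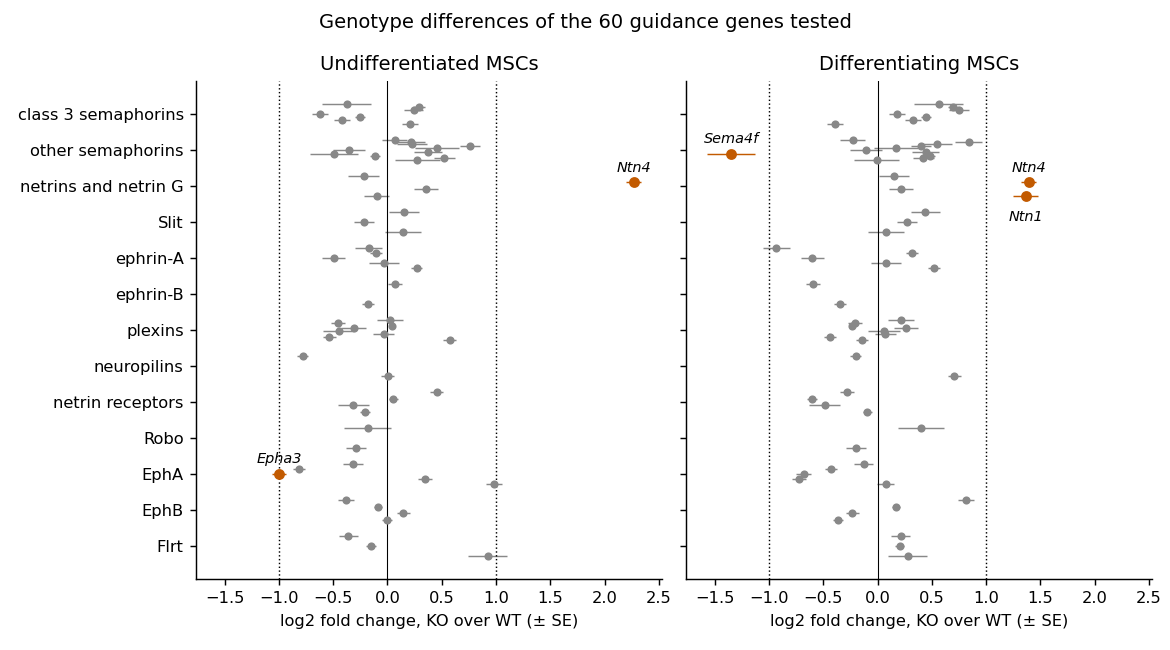
Log2 difference of KO over WT (± SE) for the 60 guidance genes tested, in undifferentiated (left) and differentiating MSCs (right). Each point is a gene, placed by family, dotted lines mark the 2-fold limits and called genes are in orange. The points crowd between the limits, with *Ntn4* far to the right in both states (2.27 and 1.39).

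*Ntn4* encodes a netrin that binds laminins in basement membranes. Its libraries stood at 4.14 and 4.37 RPKM in undifferentiated WT and 21.0 and 20.7 RPKM in undifferentiated KO MSCs. After induction they stood at 4.14 and 3.70 RPKM in WT and 10.9 and 10.0 RPKM in KO MSCs. Every KO library lay above every WT library. The log2 difference was 2.27 ± 0.069 (SE, adjusted p = 4.739e-05) before induction and 1.39 ± 0.069 (adjusted p = 0.000343) after it, or 4.91-fold and 2.67-fold by the group means. Both calls held under all 18 alternatives, with ranges of 2.06 to 2.31 and 1.22 to 1.47. Induction left *Ntn4* without a detectable change in WT (−0.12 ± 0.069, adjusted p = 0.188). In KO MSCs it fell by 0.99 on the log2 scale (± 0.069, adjusted p = 3.429e-05), just inside the 2-fold limit, and the interaction of genotype and induction was −0.88 ± 0.097 (adjusted p = 0.00181).

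*Ntn1*, the founding netrin and ligand of DCC, neogenin and UNC5 proteins, went the other way with induction. It stood at 1.55 and 1.52 RPKM in undifferentiated WT and 1.32 and 1.53 RPKM in undifferentiated KO MSCs, so the genotypes overlapped before induction. The differentiating libraries read 2.56 and 2.62 RPKM in WT and 6.10 and 7.64 RPKM in KO. The KO libraries were then the highest of all. The rise was 0.72 ± 0.12 in WT (adjusted p = 0.00242) and 2.18 ± 0.12 in KO (adjusted p = 1.255e-05), and the interaction of 1.46 ± 0.17 (adjusted p = 0.00198) was called. Between the genotypes, differentiating cells differed by 1.36 ± 0.12 (adjusted p = 0.00109, 2.65-fold).

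*Ntn3*, another secreted netrin, rose with induction in both genotypes. Its values were 0.429 and 0.386 RPKM in undifferentiated WT, 1.87 and 1.85 RPKM in differentiating WT, 0.611 and 0.492 RPKM in undifferentiated KO and 2.13 and 2.23 RPKM in differentiating KO MSCs. The rises were 1.95 ± 0.11 in WT (adjusted p = 2.549e-05) and 1.81 ± 0.11 in KO (adjusted p = 1.898e-05). *Ntn5* reached at most 0.0374 RPKM. Summed per library, the secreted netrins came to 6.12 and 6.27 RPKM in undifferentiated WT, 8.58 and 8.21 RPKM in differentiating WT, 22.9 and 22.8 RPKM in undifferentiated KO and 19.1 and 19.9 RPKM in differentiating KO MSCs. *Ntn4* made up 91.0% to 91.5% of the sum in undifferentiated KO and 67.6% to 69.7% in undifferentiated WT MSCs. After induction its share was 45.1% to 48.2% in WT and 50.4% to 57.0% in KO. Of the membrane-anchored netrin G genes, *Ntng2* ranged from 1.27 to 2.65 RPKM over all libraries and *Ntng1* was too low to be tested.

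**Figure D2:**
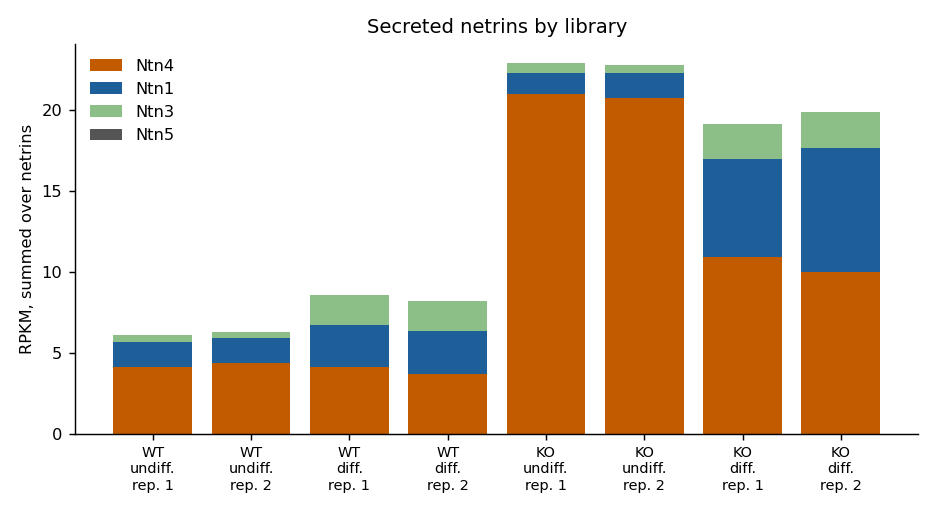
RPKM of the 4 secreted netrins, stacked, in each of the 8 libraries. KO libraries total 19.1 to 22.9 RPKM and WT libraries 6.12 to 8.58 RPKM, with *Ntn4* (orange) dominating undifferentiated KO MSCs and *Ntn1* (blue) widest in differentiating KO MSCs.

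Of the 4 netrin receptors tested, 3 fell with induction in each genotype by adjusted p-value, and none rose. Of all 15342 genes tested, 5027 fell by adjusted p-value in WT and 5609 in KO. A family of 4 is too small for this count to be read as particular to it. *Unc5b*, the most abundant, read 42.0 and 43.1 RPKM in undifferentiated WT, 18.4 and 19.0 RPKM in differentiating WT, 45.1 and 43.4 RPKM in undifferentiated KO and 12.6 and 11.9 RPKM in differentiating KO MSCs. It fell by 1.18 (± 0.043, adjusted p = 4.903e-06) in WT and fell by 1.84 (± 0.043, adjusted p = 6.272e-07) in KO, with an interaction of −0.66 ± 0.060 (adjusted p = 0.00115) that did not reach the 2-fold limit. *Unc5c* read 5.20 and 4.81 RPKM in undifferentiated WT, 3.92 and 3.59 RPKM in differentiating WT, 6.79 and 6.99 RPKM in undifferentiated KO and 3.03 and 3.11 RPKM in differentiating KO MSCs. It was the highest in KO before induction and the lowest in KO after it (interaction −0.73 ± 0.088, adjusted p = 0.00229). *Neo1*, which encodes neogenin, a receptor for netrins and for repulsive guidance molecules, ranged from 12.1 to 19.9 RPKM and fell by 0.57 in WT (± 0.044, adjusted p = 9.262e-05) and by 0.45 in KO (± 0.044, adjusted p = 0.000146). *Dcc* and *Unc5d* were too low to be tested, and *Unc5a* ranged from 0.252 to 0.464 RPKM.

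Osteogenic induction moved the guidance genes far more than genotype did. In WT MSCs 21 of the 60 were called, 11 up and 10 down, while 9.69% of all genes were called up and 4.63% down. In KO MSCs 25 were called, 15 up and 10 down, beside 13.0% and 9.87% of all genes. Of the 21 called in WT and the 25 called in KO, 17 were called in both, each in the same direction. The overlap over all genes is not given here, so this count cannot be read as particular to guidance genes. By adjusted p-value alone, 48 guidance genes moved in WT and 50 in KO, which are 80% and 83.3% of those tested, beside 64.4% and 72.9% of all genes. The median absolute log2 change was 0.63 in WT and 0.91 in KO among guidance genes and 0.36 and 0.51 among all genes. Ligands and receptors divided: of 32 ligands tested, 9 were called up and 3 down in WT and 10 up and 4 down in KO, whereas of 25 receptors 1 was called up and 6 down in WT and 4 up and 6 down in KO. The median log2 change was 0.36 in WT and 0.64 in KO for ligands, and −0.34 and −0.27 for receptors. These signs held under median centring and quantile normalization, but the ligand medians were 0.12 in WT and 0.33 in KO under quantile normalization. Centring moved all genes by −0.10 in WT, and the median of all guidance genes in WT turned from 0.17 to −0.15 under quantile normalization.

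**Figure D3:**
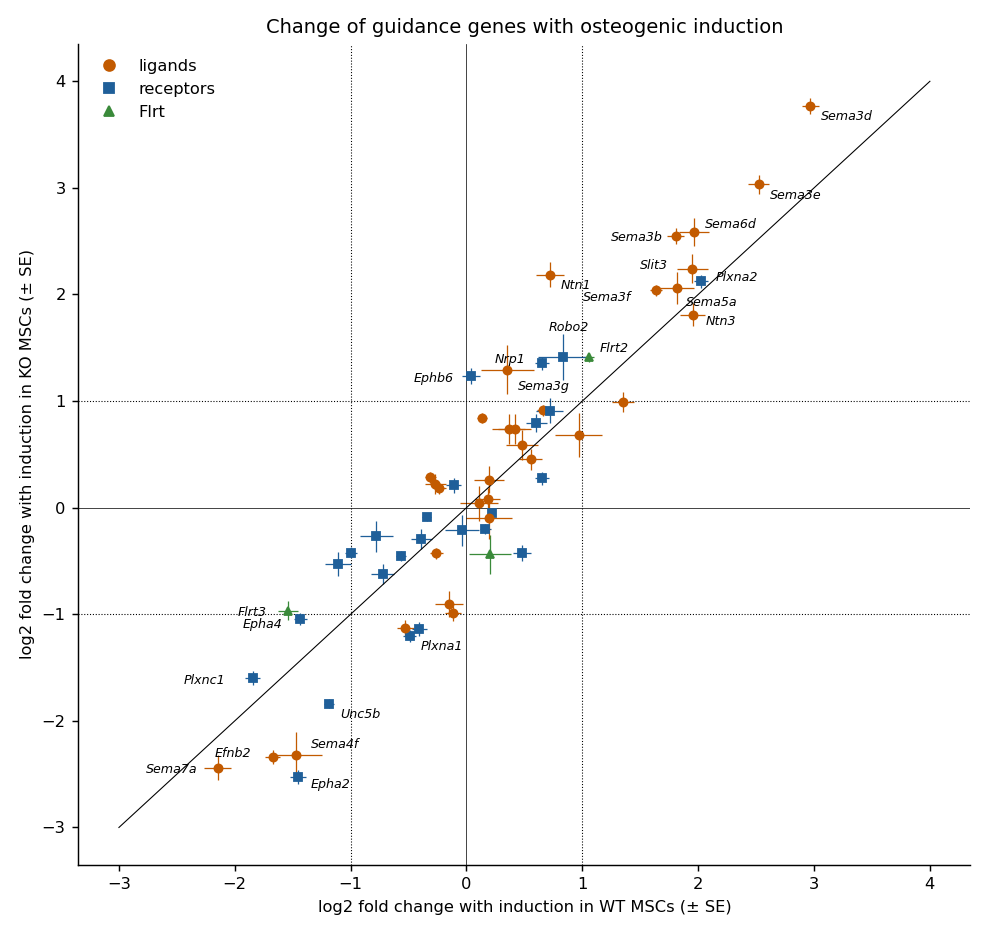
Log2 change with osteogenic induction (± SE) of the 60 guidance genes tested, in WT (horizontal axis) and KO MSCs (vertical axis). Circles are ligands, squares receptors and triangles Flrt genes, dotted lines mark 2-fold and the diagonal marks equal change. *Sema3b*, *Sema3d*, *Sema3e*, *Sema3f*, *Slit3* and *Plxna2* lie at the upper right and *Sema7a*, *Efnb2*, *Sema4f* and *Epha2* at the lower left. Of the other class 3 semaphorins, *Sema3a* lies below 0 on both axes, and *Sema3c* and *Sema3g* lie nearer 0 in WT.

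The largest rises were among the class 3 semaphorins, which are secreted. *Sema3d* read 0.370 and 0.413 RPKM in undifferentiated WT, 3.76 and 3.73 RPKM in differentiating WT, 0.213 and 0.226 RPKM in undifferentiated KO and 4.29 and 4.23 RPKM in differentiating KO MSCs. Its rise of 2.97 ± 0.075 in WT (adjusted p = 1.59e-06) and 3.77 ± 0.075 in KO (adjusted p = 3.914e-07) was the largest of any guidance gene in each genotype. *Sema3e*, which binds plexin D1 without a neuropilin, went from 1.27 and 1.41 RPKM to 8.33 and 8.01 RPKM in WT and from 1.59 and 1.61 RPKM to 12.7 and 15.0 RPKM in KO MSCs. All differentiating libraries lay above all undifferentiated ones for both genes. The rise of *Sema3e* was 2.52 ± 0.090 in WT (adjusted p = 4.854e-06) and 3.03 ± 0.090 in KO (adjusted p = 1.428e-06). *Sema3b* went from 3.85 and 3.32 RPKM to 12.6 and 12.8 RPKM in WT (1.81 ± 0.072, adjusted p = 6.937e-06) and from 2.60 and 2.69 RPKM to 15.7 and 16.3 RPKM in KO (2.55 ± 0.072, adjusted p = 1.214e-06).

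The most abundant semaphorin, *Sema3c*, moved less. It read 22.8 and 21.6 RPKM in undifferentiated WT, 25.1 and 23.7 RPKM in differentiating WT, 18.3 and 18.9 RPKM in undifferentiated KO and 34.1 and 32.6 RPKM in differentiating KO MSCs. KO libraries were thus the lowest before induction and the highest after it, with an interaction of 0.70 ± 0.064 (adjusted p = 0.00114). *Sema3a*, known as a bone-protecting signal of osteoblasts, was the one class 3 member to fall, by 0.53 in WT (± 0.074, adjusted p = 0.00122) and by 1.13 in KO (± 0.074, adjusted p = 2.789e-05). *Sema3f* was called up in both genotypes, by 1.63 in WT and 2.04 in KO, and *Sema3g*, at most 0.330 RPKM, was called up in KO (1.29 ± 0.23, but 0.28 with a pseudocount of 1), with an interaction that did not pass (adjusted p = 0.0636).

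The make-up of the class shifted with these changes. The 7 genes summed to 39.7 to 41.5 RPKM in undifferentiated WT, 63.7 to 65.6 RPKM in differentiating WT, 38.0 to 38.5 RPKM in undifferentiated KO and 86.1 to 87.3 RPKM in differentiating KO MSCs. Members other than *Sema3a* and *Sema3c* held 19.6% to 20.3% of the sum in all 4 undifferentiated libraries, 51.0% to 51.5% in differentiating WT and 53.6% to 56.9% in differentiating KO MSCs. On chromosome 5 lie 4 of the 7, in the order *Sema3d*, *Sema3a*, *Sema3e* and *Sema3c*. Gaps between neighbours are 536.5 kb, 422.7 kb and 3.318 Mb. *Sema3a*, which fell, thus lies between *Sema3d* and *Sema3e*, which rose most. *Sema3b* and *Sema3f* are 72.3 kb apart on chromosome 9.

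Of the neuropilins, the receptors of class 3 semaphorins, *Nrp1* was below *Nrp2* in undifferentiated WT MSCs and above it in every other group. *Nrp1*, the neuropilin shared with VEGF signalling, had the highest mean of any guidance gene over all libraries. By group mean it ranked highest only in differentiating KO MSCs, and *Plxnb2* lay above it in every other group. *Nrp1* read 36.3 and 37.0 RPKM in undifferentiated WT, 59.7 and 55.5 RPKM in differentiating WT, 37.1 and 36.4 RPKM in undifferentiated KO and 89.1 and 99.2 RPKM in differentiating KO MSCs. Undifferentiated libraries of both genotypes overlapped, and after induction both KO libraries lay above both WT libraries. Its rise was 0.65 ± 0.060 in WT (adjusted p = 0.000206) and 1.35 ± 0.060 in KO (adjusted p = 5.84e-06, called). *Nrp2* fell by 1.0003 in WT (± 0.052, adjusted p = 1.853e-05) and by 0.42 in KO (± 0.052, adjusted p = 0.000455). The WT call of *Nrp2* lay at the 2-fold limit and was lost without replicate 1 of undifferentiated WT or replicate 2 of differentiating WT MSCs (−0.97 in each case). The ratio of *Nrp1* to *Nrp2* was 0.894 and 0.949 in undifferentiated WT, 2.94 and 2.85 in differentiating WT, 1.59 and 1.59 in undifferentiated KO and 5.40 and 5.50 in differentiating KO MSCs.

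A-type plexins, the signalling partners of neuropilins, moved in opposite directions. *Plxna2* read 6.56 and 6.24 RPKM in undifferentiated WT, 27.4 and 25.3 RPKM in differentiating WT, 4.35 and 4.42 RPKM in undifferentiated KO and 18.7 and 20.2 RPKM in differentiating KO MSCs. It was lower in KO in both states and rose by 2.03 ± 0.058 in WT (adjusted p = 2.478e-06) and 2.12 ± 0.058 in KO (adjusted p = 1.13e-06), with an interaction of 0.10 ± 0.083 that did not pass (adjusted p = 0.387). *Plxna1* read 26.3 and 23.7 RPKM in undifferentiated WT, 18.0 and 17.6 RPKM in differentiating WT, 37.4 and 37.0 RPKM in undifferentiated KO and 15.7 and 16.5 RPKM in differentiating KO MSCs. It fell by 0.49 in WT (± 0.056, adjusted p = 0.00051) and by 1.20 in KO (± 0.056, adjusted p = 6.957e-06, called). *Plxna1* exceeded *Plxna2* 3.80- to 4.02-fold in undifferentiated WT and 8.37- to 8.60-fold in undifferentiated KO MSCs, and was the lower of the pair in all 4 differentiating libraries (ratios of 0.655 to 0.839).

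**Figure D4:**
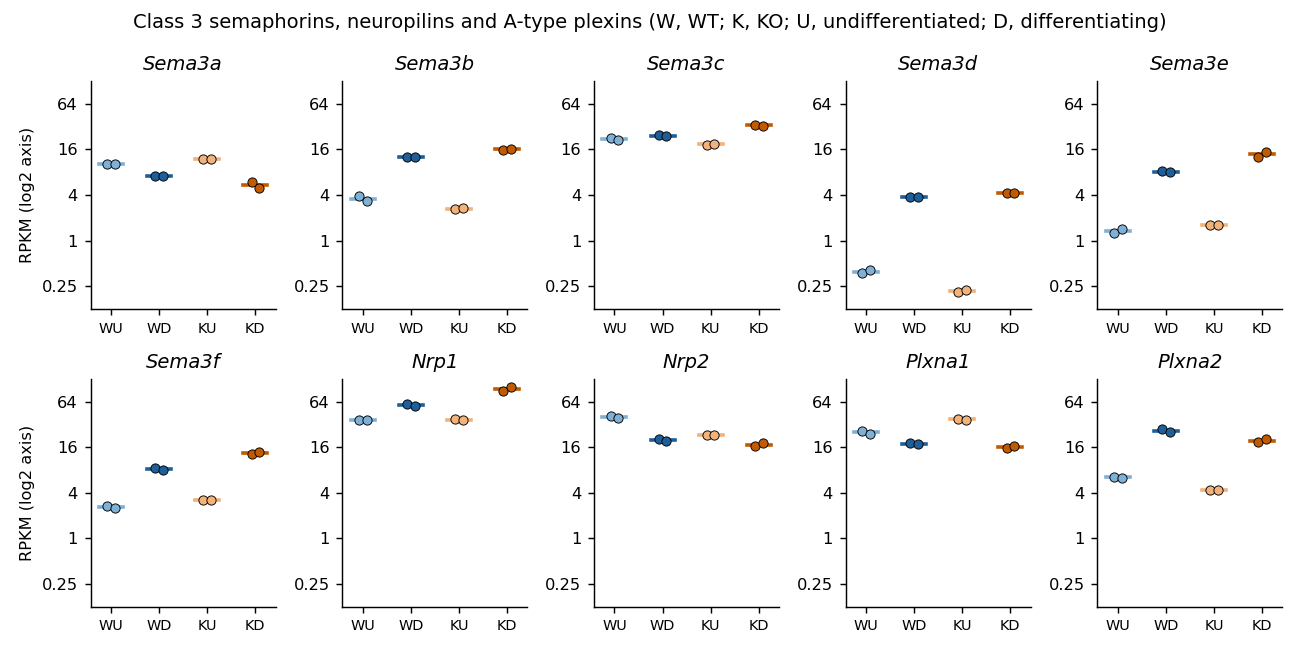
RPKM of 6 class 3 semaphorins, both neuropilins and 2 A-type plexins in each library, on a log2 axis. Points are libraries and short lines the means of the 2 libraries. *Sema3d* covers the widest range, from 0.213 to 4.29 RPKM, and *Nrp1* lies above *Nrp2* in every group except undifferentiated WT.

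Among the other plexins, *Plxnb2*, the most abundant, stayed between 49.3 and 58.7 RPKM in all libraries. It read 50.9 and 49.3 RPKM in undifferentiated WT, 58.7 and 58.2 RPKM in differentiating WT, 51.7 and 51.3 RPKM in undifferentiated KO and 49.7 and 49.4 RPKM in differentiating KO MSCs. *Plxnc1*, the receptor of semaphorin 7A, fell in both genotypes, as did its ligand. It read 3.08 and 3.21 RPKM in undifferentiated WT, 0.792 and 0.815 RPKM in differentiating WT, 2.22 and 2.32 RPKM in undifferentiated KO and 0.664 and 0.699 RPKM in differentiating KO MSCs (changes of −1.85 and −1.60, each ± 0.066, adjusted p = 4.854e-06 and 4.373e-06). *Sema7a*, which is anchored to the membrane by a lipid and also binds integrins, read 3.89 and 4.55 RPKM in undifferentiated WT, 0.935 and 0.816 RPKM in differentiating WT, 4.10 and 4.76 RPKM in undifferentiated KO and 0.749 and 0.716 RPKM in differentiating KO MSCs. Its fall was the largest of any guidance gene in WT (−2.15 ± 0.12, adjusted p = 2.193e-05), and in KO it was −2.44 ± 0.12 (adjusted p = 7.326e-06). *Plxnb1*, at most 0.838 RPKM, was called down in WT (−1.11 ± 0.11, but −0.46 with a pseudocount of 1). *Plxna3*, *Plxna4* and *Plxnd1* reached at most 5.33 RPKM with no call, and *Plxnb3* was too low to be tested.

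Membrane-bound semaphorins went both ways. *Sema4f*, a class 4 member, read 3.85 and 3.72 RPKM in undifferentiated WT, 1.11 and 1.53 RPKM in differentiating WT, 2.75 and 2.58 RPKM in undifferentiated KO and 0.576 and 0.350 RPKM in differentiating KO MSCs. KO libraries were the lower in each state, although the undifferentiated difference did not pass the test (−0.49 ± 0.22, adjusted p = 0.139). It fell by 1.47 in WT (± 0.22, adjusted p = 0.00158) and by 2.32 in KO (± 0.22, adjusted p = 0.000134), and differentiating cells differed between genotypes by −1.35 ± 0.22 (adjusted p = 0.00582). That genotype call was lost in a fit of the 4 differentiating libraries alone (adjusted p = 0.0556) and with a pseudocount of 1 (−0.66). *Sema6d*, a transmembrane ligand of plexin A1, rose from 0.969 and 0.904 RPKM to 4.38 and 3.56 RPKM in WT (1.97 ± 0.13, adjusted p = 4.867e-05) and from 1.11 and 1.10 RPKM to 6.46 and 7.87 RPKM in KO (2.59 ± 0.13, adjusted p = 8.881e-06). *Sema5a*, whose extracellular part carries thrombospondin repeats, rose from 0.615 and 0.503 RPKM to 2.34 and 2.10 RPKM in WT (1.82 ± 0.15, adjusted p = 0.000118) and from 0.442 and 0.389 RPKM to 1.82 and 2.30 RPKM in KO (2.06 ± 0.15, adjusted p = 3.955e-05). *Sema6b* was called up in WT (1.35 ± 0.092) and read 0.99 ± 0.092 in KO, and the difference between these changes did not pass the test (adjusted p = 0.0736). Of the 8 others, *Sema4d* and *Sema5b* were too low to be tested, and the rest ranged from 0.0274 to 6.22 RPKM with no call.

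Of the Slits, *Slit3* rose, while *Slit2* moved little and *Slit1* stayed at or under 0.188 RPKM. *Slit3* read 8.40 and 7.64 RPKM in undifferentiated WT, 33.3 and 29.3 RPKM in differentiating WT, 8.90 and 8.91 RPKM in undifferentiated KO and 37.0 and 48.8 RPKM in differentiating KO MSCs. The differentiating KO libraries were the highest and also the farthest apart. The rise was 1.95 ± 0.14 in WT (adjusted p = 6.088e-05) and 2.24 ± 0.14 in KO (adjusted p = 1.917e-05). *Slit2* ranged from 9.67 to 13.5 RPKM over all libraries and fell by 0.27 in WT (± 0.092, adjusted p = 0.0423). Its change in KO was 0.22 (adjusted p = 0.0717). The ratio of *Slit3* to *Slit2* went from 0.609 to 0.848 in undifferentiated libraries to 2.98 to 3.61 in differentiating ones. *Robo1*, the most abundant Slit receptor, read 6.28 and 5.78 RPKM in undifferentiated WT, 4.77 and 4.38 RPKM in differentiating WT, 4.97 and 4.85 RPKM in undifferentiated KO and 3.66 and 4.33 RPKM in differentiating KO MSCs. It fell by 0.39 in WT (± 0.092, adjusted p = 0.0106) and by 0.29 in KO (± 0.092, adjusted p = 0.0269), inside the 2-fold limit. *Robo2*, at most 0.398 RPKM, was called up in KO (1.42 ± 0.22, adjusted p = 0.00125, but 0.33 with a pseudocount of 1). *Robo4*, a Robo of endothelium, was listed at 0 in every library.

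In the ephrin system, calls fell on *Efnb2* among the ligands and on *Epha2*, *Epha3*, *Epha4* and *Ephb6* among the receptors. *Efnb2*, a transmembrane ephrin whose main receptor is EPHB4, read 10.9 and 11.3 RPKM in undifferentiated WT, 3.39 and 3.44 RPKM in differentiating WT, 12.2 and 11.2 RPKM in undifferentiated KO and 2.34 and 2.12 RPKM in differentiating KO MSCs. It fell by 1.67 in WT (± 0.066, adjusted p = 6.641e-06) and by 2.34 in KO (± 0.066, adjusted p = 1.198e-06). *Ephb4*, the most abundant EphB receptor, read 12.4 and 12.7 RPKM in undifferentiated WT, 9.78 and 9.95 RPKM in differentiating WT, 11.8 and 11.8 RPKM in undifferentiated KO and 10.8 and 11.5 RPKM in differentiating KO MSCs. It fell by 0.34 in WT (± 0.040, adjusted p = 0.000516), and its change in KO was −0.09 (adjusted p = 0.0925). *Efnb1*, the most abundant ephrin, read 43.0 and 44.0 RPKM in undifferentiated WT, 34.7 and 38.0 RPKM in differentiating WT, 38.5 and 38.3 RPKM in undifferentiated KO and 29.4 and 27.7 RPKM in differentiating KO MSCs. *Efna4*, the most abundant ephrin-A gene, read 6.43 and 6.87 RPKM in undifferentiated WT, 5.54 and 5.72 RPKM in differentiating WT, 6.03 and 6.31 RPKM in undifferentiated KO and 7.25 and 6.79 RPKM in differentiating KO MSCs. It fell in WT (−0.24 ± 0.055, adjusted p = 0.0104) and rose in KO (0.18 ± 0.055, adjusted p = 0.023), with an interaction of 0.42 ± 0.078 (adjusted p = 0.00877). By limma, 0 of the 5 ephrin-A genes were called in any comparison. By adjusted p-value alone, 3 passed with induction in WT and 4 in KO (3 and 4 at an unadjusted p under 0.05). Those are 60% and 80% of the ephrin-A genes, near the 64.4% and 72.9% of all genes.

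*Epha2*, an Eph receptor of epithelia and of proliferating cells, showed the largest fall of any guidance gene in KO MSCs on the log2(RPKM + 0.1) scale. This rank depends on the setting. Across the alternatives, the largest KO fall was −2.61 for *Epha2*, −2.67 for *Sema7a* and −2.62 for *Sema4f*. *Epha2* is described by library here. Its values were 18.1 and 18.6 RPKM in undifferentiated WT, 6.24 and 7.06 RPKM in differentiating WT, 23.5 and 23.4 RPKM in undifferentiated KO and 4.13 and 3.83 RPKM in differentiating KO MSCs. KO was above WT before induction and below it afterwards. The fall was 1.46 on the log2 scale in WT (−1.46 ± 0.066, adjusted p = 1.132e-05) and 2.53 in KO (−2.53 ± 0.066, adjusted p = 9.714e-07), and the interaction of −1.07 ± 0.094 (adjusted p = 0.00104) was called. Without replicate 2 of differentiating WT MSCs the interaction was −0.98 and lost the call. *Epha4* read 7.07 and 7.30 RPKM in undifferentiated WT, 2.64 and 2.55 RPKM in differentiating WT, 4.02 and 4.05 RPKM in undifferentiated KO and 1.99 and 1.83 RPKM in differentiating KO MSCs. Its KO libraries lay below the WT libraries of the same state, and it fell by 1.43 in WT (± 0.055, adjusted p = 5.95e-06) and by 1.04 in KO (± 0.055, adjusted p = 1.071e-05). The KO call of *Epha4* was lost without replicate 2 of differentiating KO MSCs (−0.99).

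*Epha3* separated the genotypes in both states. It read 5.08 and 5.68 RPKM in undifferentiated WT, 4.96 and 4.96 RPKM in differentiating WT, 2.74 and 2.53 RPKM in undifferentiated KO and 3.03 and 3.09 RPKM in differentiating KO MSCs. All 4 KO libraries lay below all 4 WT libraries. The genotype difference was −1.0005 ± 0.068 (adjusted p = 0.000525) in undifferentiated and −0.68 ± 0.068 (adjusted p = 0.00142) in differentiating MSCs, and the first lay at the 2-fold limit. It lost the call without replicate 2 of undifferentiated WT (−0.92) or replicate 2 of undifferentiated KO MSCs (−0.95).

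*Ephb6*, an Eph receptor whose kinase domain is inactive, read 2.74 and 2.87 RPKM in undifferentiated WT, 2.87 and 2.90 RPKM in differentiating WT, 2.05 and 2.22 RPKM in undifferentiated KO and 4.84 and 5.46 RPKM in differentiating KO MSCs. WT libraries hardly moved with induction, whereas KO libraries went from the lowest to the highest. The change was 0.04 in WT and 1.23 ± 0.075 in KO (adjusted p = 1.961e-05), and the interaction of 1.19 ± 0.11 (adjusted p = 0.00108) was called. *Epha1* was higher in undifferentiated KO MSCs by 0.98 ± 0.075 (adjusted p = 0.000733), just inside the 2-fold limit. *Epha7*, *Ephb2* and *Ephb3* ranged from 0.612 to 6.19 RPKM with no call. *Epha5*, *Epha6*, *Epha8*, *Epha10* and *Ephb1* were too low to be tested.

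**Figure D5:**
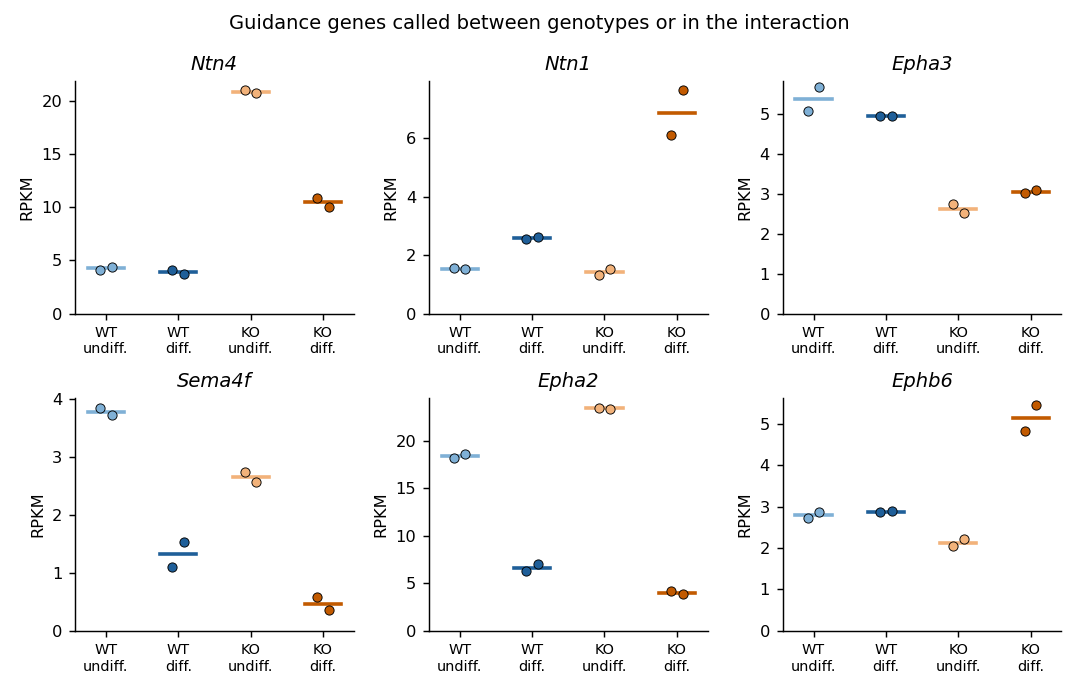
RPKM of the 6 guidance genes called between genotypes or in the interaction, in each of the 8 libraries. Points are libraries and short lines the means of the 2 libraries, and each vertical axis starts at 0. KO lies above WT in both states for *Ntn4* and below it for *Epha3* and *Sema4f*, while for *Ntn1* and *Ephb6* the differentiating KO libraries are the highest, and *Epha2* is higher in KO before induction and lower after it.

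Across the guidance genes, 3 of 60 were called in the interaction, *Ntn1* and *Ephb6* upward and *Epha2* downward, where 2.76% of all genes were called upward and 3.42% downward. By adjusted p-value alone 32 passed (53.3%, 20 upward and 12 downward), beside 39.4% of all genes. Class 3 semaphorins made up 6 of the 32, 5 of them upward. The 8 proliferation markers, among them *Mki67* and *Pcna*, summed to 201 and 204 RPKM in undifferentiated WT, 118 and 128 RPKM in differentiating WT, 265 and 269 RPKM in undifferentiated KO and 78.1 and 62.3 RPKM in differentiating KO MSCs. They moved across the groups in the same order as *Epha2*, and their part in these differences was not tested. The macrophage and leukocyte sum was lower in all KO than in all WT libraries, the same split as that of *Epha3*, and its part was not tested either. Its largest member, *Lyz2*, stood at 12.8 to 26.5 RPKM in WT and 3.19 to 7.66 RPKM in KO libraries. By adjusted p-value alone, 4 of 8 markers tested were lower and 2 higher in undifferentiated KO MSCs. In differentiating KO MSCs 7 were lower and 1 higher. *Cd14* was higher in KO in both states. Osteoblast markers summed to 1357 and 1225 RPKM in undifferentiated WT, 2321 and 2097 RPKM in differentiating WT, 1513 and 1587 RPKM in undifferentiated KO and 1239 and 1170 RPKM in differentiating KO MSCs. Their sum was thus higher after induction in WT and lower in KO, and its part in the interactions was not tested. Single markers did not all follow the sum. Of 9 tested, 1 was called up and 1 down in WT, and 1 up and 2 down in KO. *Ibsp* went from 20.2 and 19.7 RPKM to 386 and 313 RPKM in KO. *Sp7* went from 7.28 and 7.84 RPKM to 3.12 and 3.11 RPKM in WT. Adipogenic markers summed to 57.1 to 67.7 RPKM before and 420 to 467 RPKM after induction.

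The Flrt genes, whose transmembrane products bind UNC5 receptors and latrophilins, split. *Flrt2*, the most abundant, read 21.7 and 20.7 RPKM in undifferentiated WT, 45.3 and 42.9 RPKM in differentiating WT, 18.8 and 19.3 RPKM in undifferentiated KO and 49.8 and 51.9 RPKM in differentiating KO MSCs. It rose by 1.05 ± 0.044 in WT (adjusted p = 7.755e-06) and 1.41 ± 0.044 in KO (adjusted p = 1.599e-06), and the WT call was lost under median centring (0.95). *Flrt3* read 2.58 and 2.75 RPKM in undifferentiated WT, 0.829 and 0.871 RPKM in differentiating WT, 2.16 and 1.95 RPKM in undifferentiated KO and 1.06 and 0.947 RPKM in differentiating KO MSCs. It fell by 1.54 in WT (± 0.088, adjusted p = 2.841e-05) and by 0.97 in KO (± 0.088, adjusted p = 0.000116). *Flrt1* reached at most 0.303 RPKM and was not called.

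Other genes of the pathways were counted in the same way. Of 19 listed symbols of co-receptors, further ligands and sheddases, 16 were in the table and 13 were tested. The list held both the older and the current symbols of the latrophilins. By limma 0 were called between genotypes or in the interaction, where 1.7% and 3.3% of all genes were called between genotypes in undifferentiated and differentiating MSCs and 6.17% in the interaction. By adjusted p-value alone 4 (30.8%) and 7 (53.8%) differed between genotypes, beside 32.2% and 40.7% of all genes, and 4 passed in the interaction, and at an unadjusted p under 0.05 the counts were 5, 8 and 4. With induction 7 (53.8%) were called in each genotype, 6 up and 1 down, beside 14.3% of all genes in WT and 22.9% in KO. *Draxin*, which encodes a secreted netrin antagonist, rose by 2.43 ± 0.14 in WT and 2.89 ± 0.14 in KO, and *Rgma*, a ligand of neogenin, by 2.29 ± 0.12 in both. *Adgrl2*, a latrophilin that binds FLRT proteins, rose by 1.66 ± 0.087 in WT and 1.61 ± 0.087 in KO, and *Met*, *L1cam* and *Kdr* were also called up in both. *Gpc1*, a heparan sulfate proteoglycan that binds Slits, fell by 1.83 in WT and by 2.01 in KO (each ± 0.035).

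Of 48 intracellular effectors, 45 were tested, and 10 were called with induction in each genotype, 7 up and 3 down in WT and 5 up and 5 down in KO. That is 22.2% in each, beside 14.3% of all genes in WT and 22.9% in KO, so the KO share is near that of all genes. *Ablim1*, *Srgap1* and *Vav2* were among those called up in both. *Chn1*, *Dpysl3* and *Rnd1* were called down in both. *Dpysl3*, a member of the collapsin response mediator family that acts downstream of semaphorins, was the 1 effector called between genotypes, with group means of 27.8 RPKM in WT and 13.3 RPKM in KO differentiating MSCs (−1.06 ± 0.051, adjusted p = 0.000331). That is 2.22% of the effectors tested, beside 3.3% of all genes in differentiating MSCs. In the interaction, *Chn1* (−1.18 ± 0.21, adjusted p = 0.0072) and *Limk1*, a kinase of cofilin (−1.03 ± 0.069, adjusted p = 0.000587), were called downward. These are 4.44% of the effectors tested, beside 6.17% of all genes, so both shares lie below those of all genes. *Limk1* and *Ngef* were called up in WT and not in KO, and *Cfl1* and *Mical2* down in KO and not in WT, where all 4 passed the interaction by adjusted p-value.

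Of the 75 guidance genes, 31 were called in at least 1 of the 5 comparisons, 29 were tested and called in none, and 15 were not tested. The share of all genes called in at least 1 comparison is not given here. The 15 were *Dcc*, *Efnb3*, *Epha5*, *Epha6*, *Epha8*, *Epha10*, *Ephb1*, *Ntn5*, *Ntng1*, *Plxnb3*, *Robo3*, *Robo4*, *Sema4d*, *Sema5b* and *Unc5d*, and none exceeded 0.154 RPKM in any library.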

How the data were processed

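Libraries were made by the authors from ribosomal RNA-depleted total RNA, strand-specific, and sequenced as single-end reads on an Illumina HiSeq. The values are RPKM per gene, which the authors deposited for 24346 genes after alignment to mm10 with TopHat2 and quantification with Cufflinks and Cuffdiff on the iGenomes annotation. The submitters' processing notes name TopHat2 2.1.0 and Cufflinks 2.2.1. Every column was assigned to a sample by its name, and 0 were left without one. Counts were not used here: reads inferred from the steps of low values were whole for 72.2% of 4381 values (tolerance 0.05 reads, 10% by chance), too few for a count test.

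The 15342 genes whose average across libraries reached 0.1 RPKM were fitted with limma 3.58.1 in R 4.3.3 on log2(RPKM + 0.1), with 1 mean for each of the 4 groups and a trended prior (4 residual and 1.98 prior degrees of freedom). The 5 comparisons were KO versus WT in each state, differentiating versus undifferentiated in each genotype, and their interaction. All tests were two-sided, and p-values were adjusted by Benjamini-Hochberg over all genes tested. The procedure was tested on simulated data. Replicates of a group differed by more than sampling noise (1.88 to 6.85 times the expected median chi-square).

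The guidance genes, marker lists and pathway lists were chosen with earlier results of these data known. Values per library are given for the genes called between genotypes or in the interaction, the 8 largest changes in each direction of each induction comparison whose libraries did not overlap, and the most abundant member of each family. Most abundant means the highest mean RPKM over all libraries. Other guidance genes given with their own values were chosen after these were seen. Positions are from GENCODE M21 and promoters from RefSeq. Of the alternatives, 112 were planned and 6 were added after seeing the data, which left out 50 genes listed at 0 in both libraries of a group and at 20 RPKM or more elsewhere. None of the 50 is a guidance gene. Other steps ran under numpy 2.4.6 and pandas 2.3.3 in python 3.11.15, and plots were drawn in matplotlib 3.10.9.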

Additional observations from a re-analysis of the deposited data

Results flagged for a closer look

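The interaction of genotype and induction passed both limits for 3 guidance genes, so that the change with induction differed between WT and KO libraries by the test of that difference itself. That is 5% of the 60 tested, beside 6.17% of all genes, so no more than the share of all genes. Genotype and cell mix cannot be told apart here either. For *Ntn1* the interaction was 1.46 on the log2 scale, with a rise in both genotypes that was larger in KO. For *Ephb6* it was 1.19, with a rise in KO and a WT change of 0.04. For *Epha2* it was -1.07, with a fall in both genotypes that was larger in KO. With a pseudocount of 1, *Ephb6* (0.94) and *Epha2* (−0.95) lost the call. The causes of these differences were not tested.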

How the results depend on the processing

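Of 54 called values of guidance genes, 967 were recomputed under the alternatives, of which 942 kept direction and call, 25 lost the call and 0 reversed. A pseudocount of 1 accounted for 14 of the 25 and quantile normalization for 3. In undifferentiated MSCs the 2 genes called between genotypes became 4 with a pseudocount of 0.01, 1 with a pseudocount of 1 and 1 under quantile normalization, and ranged from 1 to 4 when single libraries were left out. In the interaction a pseudocount of 1 left 1 of 3. With no fold limit the counts were 25 and 37 between genotypes, 48 and 50 with induction and 32 in the interaction. A log2 fold limit of 0.58 gave 8 and 14 between genotypes, 38 with induction in KO and 17 in the interaction. Beyond the construction of these limits the causes were not tested. Replicate numbers did not pair the libraries (correlations of deviations of -0.0924 to 0.0304). With the replicate number as a block, the counts were 2, 3, 21, 25 and 3, the same as without it. Below about 0.1 RPKM, fold changes rest on the pseudocount.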
